A study of Mus musculus with 15 samples.

Results

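The mRNAs described here encode the proteins that carry a proliferating cell through G1: the D-type cyclins (Ccnd1, Ccnd2 and Ccnd3), the E-type cyclins (Ccne1 and Ccne2), the kinases Cdk4 and Cdk6, and the CDK inhibitors Cdkn1a, Cdkn1b and Cdkn2c. The genes were picked by function, and no value of their decay entered the rule, though earlier results of these data were known. A gene was followed through the probe sets that carry its symbol and no other, and where there were several, through the one with the highest mean at 0 min. This found 9 of the 10 genes among 25175 probe sets. The only probe set of Cdkn1a also carries the symbol of a second gene, so no value is given for it. Cdkn1b had 2 probe sets, and each of the other members had 1.

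D-type cyclins bind Cdk4 and Cdk6, and these kinases begin the phosphorylation of the retinoblastoma family of pocket proteins, which hold E2F transcription factors in check. Cyclin E with Cdk2 extends that phosphorylation and opens S phase. Cdkn2c encodes an INK4 inhibitor that binds Cdk4 and Cdk6, whereas Cdkn1a and Cdkn1b encode Cip/Kip proteins that bind cyclin and kinase complexes. In muscle precursors, leaving the cell cycle in G1 goes together with the start of differentiation.

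Levels were read on 15 Affymetrix Mouse Gene 1.0 ST arrays, from collections made at 0 min and then 10, 50, 110 and 230 min later, 3 arrays for each. The cells were C2C12 mouse myoblasts of the LKO1 line, which carries an empty lentiviral vector, grown in puromycin and kept under confluence so that they would not differentiate. All arrays come from cells given 8 µg/mL actinomycin D, a drug that blocks transcription, for 30 min before the 0 min collection, so 0 min is not an untreated state and any loss within those 30 min was not measured. Each replicate number was taken to mark a time course of 5 arrays. The methods describe the whole experiment as repeated in triplicate but do not name the cultures behind each repeat. In the main fits the p-values rest on the scatter of arrays within these 3 time courses. Offsets between time courses do not enter them. Part of that scatter may be technical, and the p-values do not measure the spread between independent cultures.

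Every value is a ratio to the 5th percentile of its own array, so an array reads 1 at that percentile by construction. Levels of different genes come from different probes and are not compared here. A probe set counted as expressed when it lay above its array's median at 0 min in at least 2 of 3 time courses. All 9 members passed, as did 12544 probe sets in all. The median expressed probe set stood at 93.2 ± 1.96% of its 0 min level at 10 min, 93 ± 11.5% at 50 min, 62.3 ± 16.3% at 110 min and 53.2 ± 9.03% at 230 min (SD, n = 3 time courses). The lowest of the 110 min arrays was that of time course 1, with a median of 44.3%, and the lowest at 230 min was that of time course 2, with 43.0%. In these arrays of whole cultures, fewer cells of a type and less RNA per cell cannot be told apart. All 5 myoblast markers were expressed (Myod1, Myf5, Des, Cdh15 and Chrna1), as were Mki67, Top2a and Pcna. Of 8 myotube markers, 5 were expressed and Myh1, Myh3 and Actn2 were not. Pdgfra was expressed of 5 fibroblast markers and Pparg of 4 adipocyte markers. The summed ratio of the 8 myotube markers lay between 13.6 and 22.4 at 230 min, against 24.8 to 42.7 at 0 min. The other summed ratios were lower at 230 min too: 41.6 to 63.5 against 90.8 to 117.5 for the myoblast markers. For Mki67, Top2a and Pcna they were 60.3 to 133.6 against 143.7 to 213.5. Fibroblast markers gave 6.48 to 7.95 against 10.4 to 12.3, and adipocyte markers 6.43 to 8.31 against 14.8 to 18.4. Single genes weighed heavily in 2 of the sums. At 0 min Acta1 read 12 ± 8.49 (SD, n = 3) and the other myotube markers had means of 1.37 to 4.06. Pparg read 12.1 ± 1.45 and the other adipocyte markers had means of 1.25 to 2.13. The sums are not read as levels of a cell type. The part of these sums in the members' values was not tested.

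Across the time courses the 9 mRNAs ranged from steep to shallow slopes. Cdkn2c and Ccne1 lost level most steeply, Cdkn1b, Ccnd3 and Ccne2 followed, Ccnd2 and Cdk6 lay at the median of expressed probe sets, and Ccnd1 and Cdk4 were the shallowest. In a linear trend of log2 level in time (limma, time course as a block), all 9 members fell at an adjusted p under 0.05, although the slopes of Ccnd1, Ccnd2, Cdk4 and Cdk6 turned positive under some other scalings of the arrays. That count cannot set them apart, since 96.4% of expressed probe sets fell. Over the members the slopes had a median of -0.33 log2 per hr, and over all expressed probe sets one of -0.25.

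**Figure D1:**
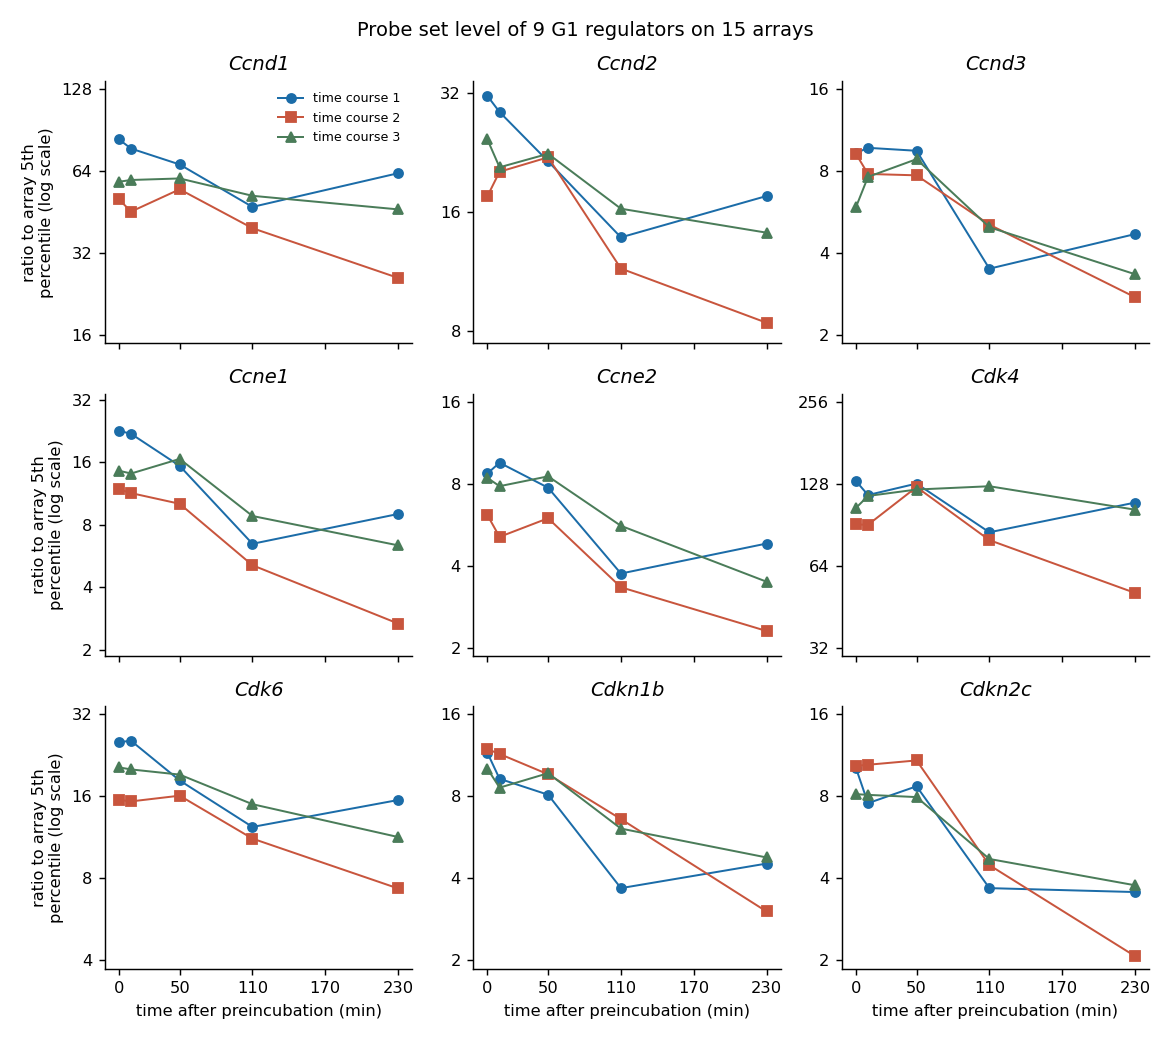
Probe set level of each member (ratio to the array's 5th percentile, log scale) against time after the 30 min in actinomycin D, with 1 line for each of the 3 time courses. Levels stay near those at 0 min to 50 min and lie lower at 110 min in most panels, while Cdk4 overlaps its 0 min range throughout. In time course 1, 8 of 9 members stand higher at 230 than at 110 min, beside 83.4% of expressed probe sets.

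Among the D-type cyclins, Ccnd1 encodes cyclin D1, a cyclin induced by growth factors. In order of collection, from 0 to 230 min, it read 83.6, 77.3, 67.6, 47.2 and 62.8 in time course 1, 50.3, 45.4, 54.8, 39.4 and 25.9 in time course 2, and 58.4, 59.3, 60.1, 51.9 and 46.2 in time course 3. At 110 min time course 3, and at 230 min time course 1, still lay within the 0 min range. Ccnd1 retained 68.6 ± 14.9% of its 0 min level at 230 min. Its slope was -0.15 ± 0.05 log2 per hr (SE, limma adjusted p = 0.0034), and 87.8% of expressed probe sets were steeper. Without time course 2 the slope was -0.11 log2 per hr and no longer passed (limma adjusted p = 0.13).

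Ccnd2 encodes cyclin D2. Its ratios at the 5 times were 31.4, 28.6, 21.5, 13.8 and 17.5 in time course 1, 17.5, 20.2, 22.0, 11.5 and 8.39 in time course 2, and 24.4, 20.7, 22.4, 16.3 and 14.2 in time course 3. All 110 min arrays lay below all 0 min arrays, while at 230 min time course 1 met the lowest 0 min value. Ccnd2 retained 54.0 ± 5.38% at 230 min, and its slope of -0.25 ± 0.05 log2 per hr (SE, limma adjusted p = 1.3e-05) was exceeded in steepness by 47.9% of expressed probe sets.

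Ccnd3 encodes cyclin D3, the D-type cyclin that remains in differentiated muscle. It read 9.3, 9.73, 9.49, 3.5 and 4.69 in time course 1, 9.26, 7.8, 7.71, 5.08 and 2.75 in time course 2, and 5.88, 7.61, 8.84, 4.97 and 3.34 in time course 3. Time course 3 began lowest and read higher at 10 and 50 min than at 0 min, so the spread at 50 min was wide (112 ± 34.6% of 0 min). The arrays at 110 and at 230 min did not overlap those at 0 min. The slope was -0.36 ± 0.05 log2 per hr (SE, limma adjusted p = 3.3e-08), with 20.2% of expressed probe sets steeper, and 45.6 ± 14.2% remained at 230 min.

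The E-type cyclins are the partners of Cdk2. Ccne1 read 22.7, 21.9, 15.4, 6.47 and 9.01 in time course 1, 11.85, 11.36, 10.09, 5.1 and 2.67 in time course 2, and 14.6, 14.1, 16.6, 8.81 and 6.36 in time course 3. Every array at 110 and 230 min lay below every 0 min array, and 35.3 ± 11.2% remained at 230 min. With a slope of -0.44 ± 0.06 log2 per hr (SE, limma adjusted p = 1.7e-10), Ccne1 was the steepest of the cyclins, and 9.36% of expressed probe sets were steeper still.

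Ccne2 read 8.72, 9.55, 7.73, 3.74 and 4.82 in time course 1, 6.13, 5.1, 5.97, 3.33 and 2.3 in time course 2, and 8.4, 7.83, 8.51, 5.6 and 3.49 in time course 3. Its arrays at 110 and 230 min also stood clear of the 0 min range, the closest being the 5.6 of time course 3 at 110 min. Ccne2 retained 44.8 ± 9.31% at 230 min, and its slope was -0.33 ± 0.05 log2 per hr (SE, limma adjusted p = 6.3e-08), with 25.1% of expressed probe sets steeper.

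In the values as deposited, Cdk4 had a shallower slope than Cdk6. Cdk4 read 130.98, 116.25, 128.07, 84.82 and 109.05 in time course 1, 90.6, 90.4, 124.4, 79.4 and 50.8 in time course 2, and 104.1, 115.3, 121.8, 125.2 and 102.7 in time course 3. At 230 min time course 2 stood at 56.1% of its own 0 min array and time course 3 at 98.6%, and the arrays at every later time overlapped those at 0 min. Cdk4 retained 79.3 ± 21.6% at 230 min. Its slope of -0.11 ± 0.05 log2 per hr passed narrowly (SE, limma adjusted p = 0.033), and 95.6% of expressed probe sets were steeper. Without time course 2 its slope was -0.05 log2 per hr (limma adjusted p = 0.49), and without the low arrays of time course 1 at 110 min and time course 2 at 230 min it was -0.04 (limma adjusted p = 0.35).

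Cdk6 read 25.3, 25.6, 18.3, 12.35 and 15.5 in time course 1, 15.5, 15.3, 16.1, 11.2 and 7.34 in time course 2, and 20.4, 20.1, 19.2, 14.97 and 11.3 in time course 3. Its values at 110 and 230 min lay below all 0 min values, by a narrow margin at 230 min in time course 1. The slope was -0.25 ± 0.05 log2 per hr (SE, limma adjusted p = 1.3e-05), close to the median expressed probe set, and 54.7 ± 7.02% remained at 230 min.

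Both measured inhibitors lay in the steep part of the distribution. Cdkn1b, which encodes p27, read 11.6, 9.28, 8.11, 3.68 and 4.53 in time course 1, 11.92, 11.45, 9.64, 6.6 and 3.02 in time course 2, and 10.1, 8.61, 9.73, 6.09 and 4.77 in time course 3. Its 50 min arrays were all below its 0 min arrays, which held for 1 of 9 members and for 16.5% of expressed probe sets, and the change did not pass the test at that time. Cdkn1b retained 37.2 ± 11.1% at 230 min, with a slope of -0.39 ± 0.05 log2 per hr (SE, limma adjusted p = 1.9e-09). Its other probe set, which was dimmer, had a slope of -0.42 log2 per hr and retained 34.5 ± 8.11%. That probe set read 1.82, 1.21 and 1.26 at 230 min, near the array's 5th percentile, so these values are a weak second measure.

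Cdkn2c read 10.2, 7.55, 8.71, 3.68 and 3.56 in time course 1, 10.35, 10.45, 10.84, 4.47 and 2.07 in time course 2, and 8.15, 8.1, 7.95, 4.71 and 3.77 in time course 3. In time course 1, 83.4% of expressed probe sets stood higher at 230 than at 110 min. Cdkn2c was the 1 member that did not. Its slope of -0.46 ± 0.05 log2 per hr (SE, limma adjusted p = 4.2e-11) was the steepest of the 9, with 8.11% of expressed probe sets steeper, and 33.7 ± 13.2% remained at 230 min.

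**Figure D2:**
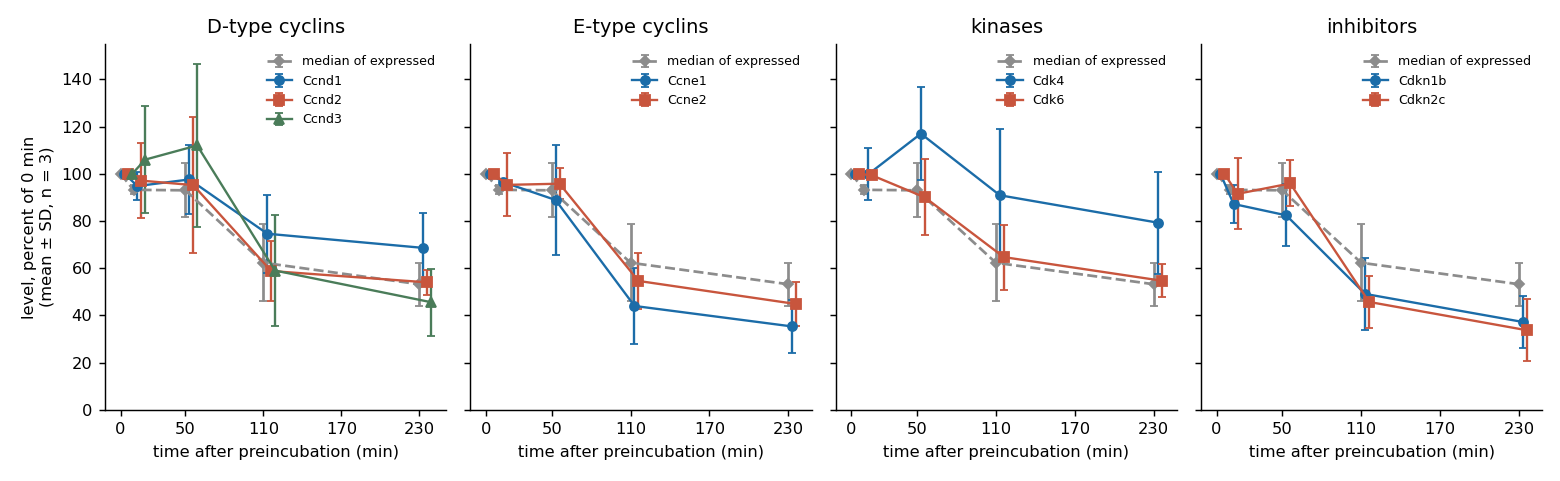
Level as a percent of the same time course's 0 min array (mean ± SD, n = 3 time courses) against time, by role, with the median of expressed probe sets dashed; points are offset sideways for legibility. At 230 min Cdk4 (79.3%) and Ccnd1 (68.6%) lie above the dashed line, and Cdkn2c (33.7%), Ccne1 (35.3%) and Cdkn1b (37.2%) lie below it.

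In the values as deposited, the loss of the members was not spread evenly over time. At 10 and 50 min the mean of each member lay between 82.4 and 117% of its 0 min level, and 0 of 9 passed the test against 0 min at either time (limma, adjusted over all expressed probe sets). No member had an unadjusted p under 0.05 at these times. Over all expressed probe sets, 0.00% were called lower at 10 min, with 131 at an unadjusted p under 0.05, and 1.99% at 50 min. At 110 min 8 of 9 members were lower than at 0 min, where 84.8% of expressed probe sets were, and at 230 min again 8 of 9, where 94.3% were. These calls rested on the scaling. With arrays divided by their median, 3 of 9 members were lower at 110 min (17.0% of expressed probe sets) and 5 of 9 at 230 min (28.6%). With the 75th percentile as divisor, 1 of 9 was lower and 2 were higher at 110 min (9.71% and 24.3% of expressed probe sets), and 3 were lower and 3 higher at 230 min (14.5% and 43.9%). Ccnd1, lower at both times as deposited, was higher on that scale, by 0.41 ± 0.10 log2 at 110 min (SE, limma adjusted p = 0.0055) and 0.60 ± 0.10 log2 at 230 min (limma adjusted p = 0.00013). As deposited, Cdk4 was the exception at both times, with -0.18 ± 0.22 log2 (SE, limma adjusted p = 0.41) at 110 min and -0.37 ± 0.22 log2 (limma adjusted p = 0.09) at 230 min. Ccnd1 was called narrowly at 110 min (-0.45 ± 0.21 log2, SE, limma adjusted p = 0.045), and lost that call without any 1 of the 3 time courses (limma adjusted p between 0.065 and 0.28). Without time course 2 it also lost the call at 230 min (limma adjusted p = 0.18), and Cdk6 lost its call at 110 min without time course 1 (limma adjusted p = 0.052).

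The interval from 50 to 110 min was compared after the levels had been seen. In it 7 of 9 members were lower at 110 min, as were 75.6% of expressed probe sets, with Ccnd1 and Cdk4 not passing (limma adjusted p = 0.077 and 0.08). With arrays divided by their median 3 of 9 were lower (12.7% of expressed probe sets), and by their 75th percentile 0 of 9 (3.36%; 5 of 9 had an unadjusted p under 0.05 in either direction). The largest change among the members in this interval was that of Cdkn2c, -1.09 ± 0.22 log2 (SE, limma adjusted p = 5e-05). Ccne1 changed by -1.05 ± 0.22 log2 (limma adjusted p = 9.5e-05). The arrays at 110 min lay wholly below those at 0 min for 7 of 9 members and for 72.9% of expressed probe sets, and those at 230 min for 6 of 9 members and 84.3%. In time course 1, 8 of 9 members read higher at 230 than at 110 min, beside 83.4% of expressed probe sets. In time courses 2 and 3 this held for 0 of 9 members, and for 0.638% and 5.78% of expressed probe sets.

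Whether related mRNAs differ in decay was asked within each array, as the log2 ratio of one member to the other, which does not change with the scaling of the array. Of 8 planned pairs, 6 had both members measured. The slope of each log2 ratio was tested by permuting times within time courses (two-sided, 100000 resamples, adjusted over the 6 pairs). In 4 pairs the slopes differed at an adjusted p under 0.05.

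Ccnd1 gained on both other D-type cyclins over time. The Ccnd1 slope exceeded that of Ccnd3 by 0.20 log2 per hr (95% interval 0.11 to 0.29, permutation adjusted p = 0.0049), with 0.19 to 0.21 in the 3 time courses taken singly. It exceeded that of Ccnd2 by 0.10 log2 per hr (0.04 to 0.16, permutation adjusted p = 0.0077), with 0.09 to 0.11 in the 3 time courses. For Ccnd2 against Ccnd3 the difference was 0.10 log2 per hr with an interval from -0.01 to 0.22 (permutation adjusted p = 0.091), which leaves room for no difference and for one as large as that between Ccnd1 and Ccnd3.

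Cdk4 gained on Cdk6 by 0.13 log2 per hr (0.05 to 0.21, permutation adjusted p = 0.0077). The time courses gave 0.05 to 0.21. Ccne1 lost ground to Ccne2, with a difference of -0.11 log2 per hr (-0.19 to -0.03, permutation adjusted p = 0.013), but the time courses ranged from -0.22 to a value that rounds to 0. The inhibitors Cdkn1b and Cdkn2c differed by 0.07 log2 per hr, with an interval from -0.01 to 0.15 (permutation adjusted p = 0.091).

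With only 2 time courses, some of these calls did not hold. Without time course 1, the adjusted permutation p was 0.068 both for Ccnd1 against Ccnd2 and for Ccne1 against Ccne2. Without time course 2 it was 0.24 for the E-type cyclins, and without time course 3 it was 0.12 for the kinases and 0.053 for Ccnd1 against Ccnd2. The difference between Ccnd1 and Ccnd3 kept its call in all 3 cases. Quantile normalization, which gives all arrays the same distribution of values, can change these ratios, and the pairs were not tested under it. Under it the slopes of Ccnd1, Ccnd2 and Ccnd3 were 0.05, 0.01 and -0.04 log2 per hr. Cdk4 and Cdk6 had 0.04 and 0.03, Ccne1 and Ccne2 -0.16 and -0.02, and Cdkn1b and Cdkn2c -0.08 and -0.15. The 75th percentile of the arrays was 7.8 to 9.81 at 0 min and 2.89 to 4.62 at 230 min. The array maximum was 416.3 to 514.6 and 433.4 to 530.1. A shift that depends on brightness would not cancel in a ratio within an array, and this was not tested.

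**Figure D3:**
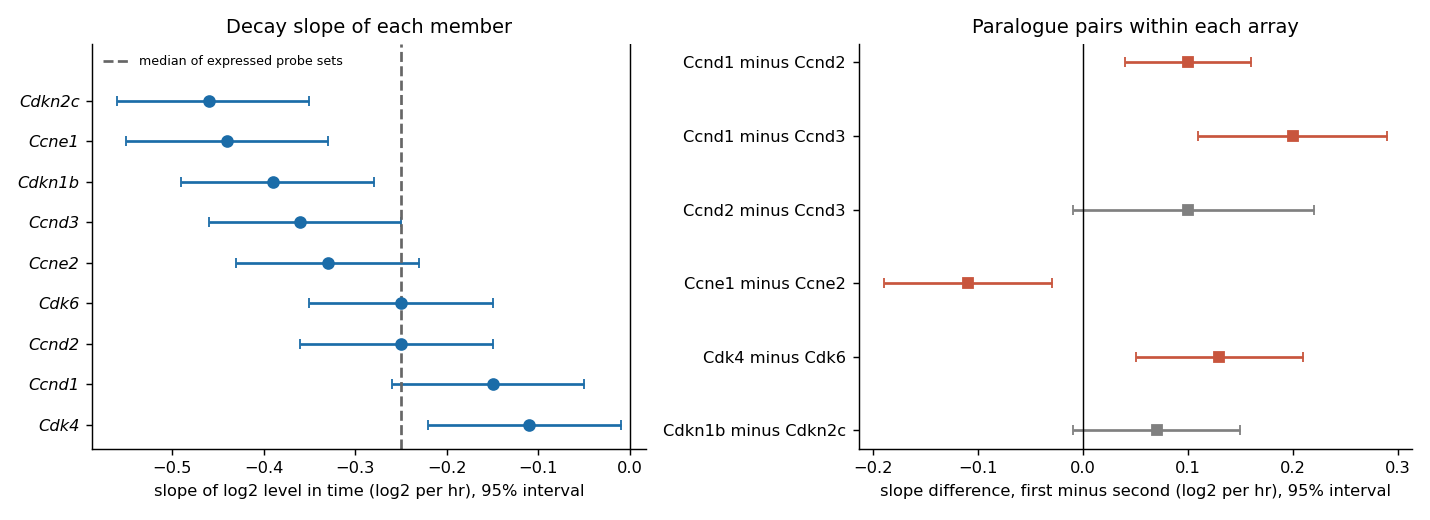
Left, slope of log2 level in time for each member (log2 per hr, point and 95% interval, 15 arrays), with the median of expressed probe sets dashed at -0.25. Right, slope of the log2 ratio of 2 paralogues within each array (first minus second, log2 per hr, 95% interval), with pairs past the adjusted threshold in red: 4 of 6 pairs, with Ccnd2 minus Ccnd3 and Cdkn1b minus Cdkn2c in grey.

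The sign of the slow members' slopes rested on how arrays were scaled, which moved the median slope of all expressed probe sets to -0.07 log2 per hr when each array was divided by its median and to 0.07 when it was divided by its 75th percentile. On the median scale, slopes fell for 5 of 9 members (Ccnd3, Ccne1, Ccne2, Cdkn1b and Cdkn2c) beside 37.8% of expressed probe sets, and Cdk4 and Ccnd1 then stood at 0.07 and 0.03 log2 per hr, neither called (limma adjusted p = 0.25 and 0.61). On the 75th percentile scale, 3 of 9 fell (Ccne1, Cdkn1b and Cdkn2c) beside 15.7%. On that scale 4 of 9 rose (Ccnd1, Ccnd2, Cdk4 and Cdk6) beside 50.0% of expressed probe sets. Dividing arrays by 1 number each shifts all slopes alike, so the order of the members is the same on all these scales by construction.

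A half-life was also fitted to each time course on its own, as a first-order decay of the linear ratio. A fit counted as reliable where the decay constant had p under 0.05 and its half-life had a 95% interval spanning less than 2 times the estimate, and a probe set where this held in at least 2 of 3 time courses. By this rule 11.2% of expressed probe sets were reliable, and 0 of 9 members were. A single time course met both criteria for Ccnd3, Ccne1 and Cdkn1b (time course 2) and for Cdk6 (time course 3). That is 0, 3 and 1 of 9 members in time courses 1 to 3, beside 4.37%, 24.3% and 22.3% of expressed probe sets. The fitted values are therefore given as a description.

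The shortest mean half-lives were those of Ccne1, 131 ± 49.3 min, Cdkn2c, 141 ± 38.0 min, and Cdkn1b, 151 ± 52.9 min (SD, n = 3 time courses). Their SDs overlap, but these include offsets between time courses. In time courses 1 to 3 Ccne1 had 99.5, 105 and 187 min and Cdkn1b 119, 123 and 212 min, longer each time. Cdkn2c had 131, 109 and 183 min. The half-lives were not tested against each other. Ccne2 followed with 176 ± 14.7 min and Ccnd3 with 178 ± 53.5 min. Ccnd2 had 227 ± 61.5 min and Cdk6 232 ± 25.9 min, again with overlapping SDs. Ccnd1 had 437 ± 173 min, with 424, 271 and 616 min in time courses 1 to 3. For Cdk4 the 3 fits gave 714, 298 and 3.3e+03 min, and none had an upper bound. The means of Ccnd1, Cdk4 and Cdk6 are longer than the last collection at 230 min and so lie beyond the times observed. These values depended on the scaling. With arrays divided by their median and by their 75th percentile, the means over time courses with a decay were 243 and 557 min for Ccne1, 266 and 686 min for Cdkn2c, and 330 and 1.89e+03 min for Cdkn1b. Ccnd2 had 1.18e+03 min on the median scale, and Ccnd1, Ccnd2, Cdk4 and Cdk6 had no fitted decay on the 75th percentile scale.

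**Figure D4:**
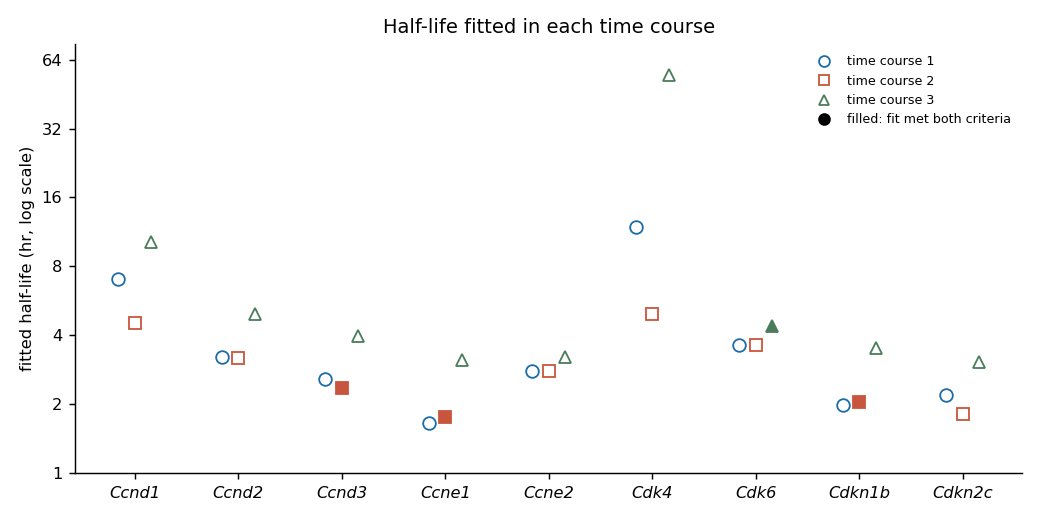
Half-life fitted in each time course (hr, log scale) for each member, by time course, with filled symbols where the fit met both criteria. Filled symbols number 0, 3 and 1 of 9 in time courses 1 to 3, where 4.37%, 24.3% and 22.3% of expressed probe sets met both criteria. The 3 values for Cdk4 are spread most widely.

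Outside the 9, other genes of the G1/S pathway were taken from a list of 33, of which 32 were expressed; Cdkn2a, the INK4 and ARF locus, was not. All 32 fell as deposited, beside 96.4% of expressed probe sets. On the 75th percentile scale 8 fell and 14 rose, beside 15.7% and 50.0% of expressed probe sets. Their slopes as deposited had a median of -0.28 log2 per hr. By role the medians were -0.36 log2 per hr over 8 kinases and activators, -0.24 over 4 other inhibitors, -0.26 over 10 pocket proteins and E2F factors, and -0.28 over 10 parts of ubiquitin ligases for cyclins and inhibitors. The steepest were Cdc25a, the phosphatase that activates Cdk2, at -0.67 ± 0.05 log2 per hr (SE, limma adjusted p = 3.9e-17), Cdk7, the kinase of the CDK-activating complex, at -0.59 (limma adjusted p = 4.6e-16), and Cdkn2d, an INK4 inhibitor like Cdkn2c, at -0.59 (limma adjusted p = 4.7e-16). The shallowest were Ddb1, an adaptor of Cul4 ligases, at -0.13 (limma adjusted p = 0.015), Skp1a, an adaptor of Cul1 ligases, at -0.16 (limma adjusted p = 0.0053), and the INK4 inhibitor Cdkn2b at -0.19 (limma adjusted p = 0.00057). The INK4 genes thus lay at both ends of the list. Cdk7 had 2 probe sets, and only the one with the higher mean at 0 min is given.

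The expressed genes most like each member were found by Pearson's r over the 15 arrays, after centring each array on the median of its expressed probe sets, among 9878 genes. These points share arrays and time courses, so r is given as a description. Closest to Cdk4 were Usp5 (r = 0.97), Nars (0.96) and Rps7 (0.95), and closest to Ccnd1 were Ank (0.95), Sae1 (0.95) and Mapk6 (0.94). Ccne1 was most like Utp18 (0.96), Nolc1 (0.95) and Brca1 (0.94), and Cdk6 most like Cabin1 (0.95), Abcc1 (0.95) and Actn1 (0.94). The closest gene to Ccnd3, Commd3, reached only 0.77. For the remaining members the closest were Nadk for Ccnd2 (0.92), Nup98 for Ccne2 (0.91), Lsm10 for Cdkn2c (0.90) and Zfp414 for Cdkn1b (0.89).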

How the data were processed

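Values were used as deposited: the authors' ratio of each summarised probe set to its array's 5th percentile, on a linear scale. How probes were summarised, the background corrected and by which program is not given in the sources used here. The number of arrays, 3 a time, limits the precision.

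Log2 ratios were fitted with limma 3.58.1 in R 4.3.3 (lmFit, eBayes, Benjamini-Hochberg over 12544 expressed probe sets, threshold 0.05), as a linear trend in hours and as time points against 0 min, with the time course as a block. The level filter stands in for the detection filter of the study's methods, as the values hold no detection p-values. The numbers were taken to mark time courses. Deviations from the mean of the 3 arrays at a time correlated over 0.1 in 29 of 30 same-number array pairs (median 0.362). They did so in 14 of 60 other pairs (median -0.216). Centring on 3 arrays pushes the other pairs below 0 when same-number pairs lie above it. What the arrays of 1 number share was not tested. Half-lives (A·exp(-kt), least squares, profile intervals) and paired slopes were computed in Python 3.11.15 with scipy 1.17.1, numpy 2.4.6 and pandas 2.3.3, and plotted with matplotlib 3.10.9. Steps were tested on simulated data.

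Symbols came from the platform annotation: 21044 probe sets had 1 symbol, 1492 several and 2639 none. Of the single symbols, 20959 matched a mouse gene table (GRCm38.p6), used for names only. The text names the members, the 3 steepest and 3 shallowest expressed pathway genes, the most similar genes and cell type markers. Members and lists were chosen with earlier results of these data known. Other settings were listed in 44 entries, and 2 were added after the data were seen (110 against 50 min, and the time points without 2 low arrays).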

Additional observations from a re-analysis of the deposited data

How the results depend on the processing

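Scaling moved the counts most. With arrays divided by their median, divided by their 75th percentile or quantile normalized, members that fell numbered 5, 3 and 3, those that rose 0, 4 and 0, pathway genes that fell 16, 8 and 11, and pathway genes that rose 0, 14 and 7. Over all expressed probe sets 4741, 1964 and 2999 fell and 246, 6272 and 3675 rose, against 12097 and 3 as deposited. The slopes that changed sign, in log2 per hr, were those of Ccnd1 (0.03, 0.16 and 0.05) and Cdk4 (0.07, 0.20 and 0.04) under these 3 settings, and of Ccnd2 (0.06 and 0.01) and Cdk6 (0.07 and 0.03) under the last 2. Dividing by the median and by the 75th percentile left 3 and 1 members lower at 110 than at 0 min (17% and 9.71% of expressed probe sets), 5 and 3 at 230 than at 0 min (28.6% and 14.5%), and 3 and 0 at 110 than at 50 min (12.7% and 3.36%). With the 75th percentile 2 members were higher at 110 and 3 at 230 than at 0 min. Without a level filter 19072 probe sets fell and 76 rose. With the filter at the 75th percentile 5862 fell, with 17 pathway genes tested and all falling, and without the 230 min arrays 6 rose; these tested other numbers of probe sets or arrays.

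Without the replicate block, Cdk4 lost its call (limma adjusted p = 0.059), 8 of 9 members fell (95.5% of expressed probe sets), and 7 were lower at 110 (75.6%) and 7 at 230 min (90.3%); all 4 pairs kept theirs. Leaving out 1 time course gave 2 to 3 pairs past the threshold, with Ccnd1 minus Ccnd2 at 0.09 to 0.10, Ccne1 minus Ccne2 at -0.16 to -0.06 and Cdk4 minus Cdk6 at 0.09 to 0.17 log2 per hr. Ccnd1 minus Ccnd3 was 0.24 without the 230 min arrays (permutation adjusted p = 0.087), and Ccne1 minus Ccne2 was -0.07 without the 2 low arrays (0.098). With the 5th percentile subtracted, Ccnd2 minus Ccnd3 (0.17) and Cdkn1b minus Cdkn2c (0.11) passed, and Ccnd2 minus Ccnd3 also passed without the 0 min arrays (0.13). A straight line through log2 values made 3 half-lives reliable (Ccne2, Cdk6 and Cdkn2c). Scaling lengthened most half-lives, as given above. Leaving out the 2 low arrays also lengthened the mean, from 176 to 203 min for Ccne2 and from 232 to 279 min for Cdk6. Some other settings shortened half-lives. With a constant floor in the fit, the mean went from 227 to 120 min for Ccnd2, from 176 to 137 min for Ccne2 and from 232 to 170 min for Cdk6. With the 5th percentile subtracted it was 141 min for Ccne2. Causes were not tested. With 3 arrays a time the precision is limited: the intervals of the 2 pairs that missed the threshold reach 0.22 and 0.15 log2 per hr.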
